A study of Danio rerio with 6 samples.

Results

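The UDP glucuronosyltransferase family 1 genes of the zebrafish (*Danio rerio*) were described in whole larvae that lack functional *fdx1b*, the ferredoxin that passes electrons to the mitochondrial steroid-making enzymes, and in their siblings. The 6 members were taken by their Ensembl identifiers out of the 31388 genes of the count table. They are *ugt1ab* (ENSDARG00000006220), *ugt1b1* (ENSDARG00000097491), *ugt1b2* (ENSDARG00000097231), *ugt1b3* (ENSDARG00000097979), *ugt1b4* (ENSDARG00000097024) and *ugt1b5* (ENSDARG00000089507). The name table used here lists the first of them as UGT1A1 and the other 5 under the same names. RNA-seq of total RNA was made from 3 pools of *fdx1b* mutants (*fdx1b*-/-) and 3 pools of siblings, each of 20 whole larvae at 5 dpf and Zeitgeber time 3. The sample labels name no treatment, and the count table marks all 6 libraries as CTR. The mutants were recognised by their impaired visual background adaptation, and how many siblings carried 1 mutant allele is not given in the sources used here. The row of *fdx1b* held few counts in every library, 30, 10 and 27 in sibling replicates 1, 2 and 3 and 29, 27 and 42 in the mutants. Its level was 0.608 ± 0.0630 CPM, counts relative to the library total after scaling by the TMM factors of edgeR, in siblings and 0.803 ± 0.151 CPM in mutants (SD, n = 3), and the genotypes overlapped (log2 fold change 0.38, SE 0.25, adjusted *p* = 0.421, edgeR). Counts per gene do not show whether a transcript carries the mutation, so this row does not check the genotype labels.

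UDP glucuronosyltransferases sit in the membrane of the endoplasmic reticulum and move glucuronic acid from UDP-glucuronate onto steroids, bilirubin, drugs and other lipophilic molecules, which makes them soluble enough to be excreted in bile and urine. They are best known from the liver, and also from the gut and kidney. In mammals the family 1 locus has a series of alternative first exons, each with its own promoter, spliced to one common set of last exons. The first exon encodes the part of the enzyme that binds the substrate, and the common exons encode the part that binds UDP-glucuronate. One consequence for counting is that reads from the common exons belong to every gene of the locus.

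The values were raw exonic read counts per gene, from reads with a unique alignment. They summed to between 18247332 counts in sibling replicate 2 and 49908095 counts in sibling replicate 1. Across genes, log2 normalized values of replicates correlated with a Pearson *R* between 0.984 and 0.994. Genotypes were compared by edgeR's quasi-likelihood test over 26544 genes, and a gene was called where the adjusted *p*-value did not exceed 0.01 and the log2 fold change reached 0.25 in either direction. All 6 members were tested.

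All 6 members were higher in the *fdx1b*-/- pools, with log2 fold changes between 0.29 and 0.31, and 0 of the 6 were called, against 1.12% of all tested genes called in either direction and 0.618% called higher. A log2 fold change of 0.25 or more in that direction was found in 10.7% of all tested genes. For every member the 3 mutant values lay above the 3 sibling values, a pattern that 12.9% of all tested genes had. Adjusted *p*-values ran from 0.0202 to 0.0529 with the quasi-likelihood test of edgeR. With the threshold set to 0.05 and the fold left free, 5 of the 6 passed, *ugt1ab* being the exception, against 1.94% of all tested genes in that direction. The Wald test of DESeq2 called 5 of the 6, against 1.60% of all tested genes called higher by that tool. Unadjusted *p*-values of the members ran from 0.000347 to 0.00225 with edgeR. The number of members that passed changed when 1 pool was left out, and so did the share of all tested genes. With edgeR, 0 of the 6 passed 0.05 without sibling replicate 1, mutant replicate 1, mutant replicate 2 or mutant replicate 3. In those fits the lowest adjusted *p*-value of any member was 0.114, 0.0927, 0.0565 and 0.0900. Of all genes tested there, 0.689%, 0.705%, 0.665% and 0.704% were higher in mutants at 0.05. All 6 members passed 0.05 without sibling replicate 2 and without sibling replicate 3, against 2.52% and 3.55% of all genes tested. Without sibling replicate 3, edgeR called 4 members, *ugt1b2*, *ugt1b3*, *ugt1b4* and *ugt1b5*, against 1.03% of all genes tested in that fit called higher. The 5 *ugt1b* rows share counts, so these 6 rows are not 6 separate measurements. Whole larvae were used, so more or fewer cells of an organ and more or less RNA per cell cannot be told apart.

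**Figure D1:**
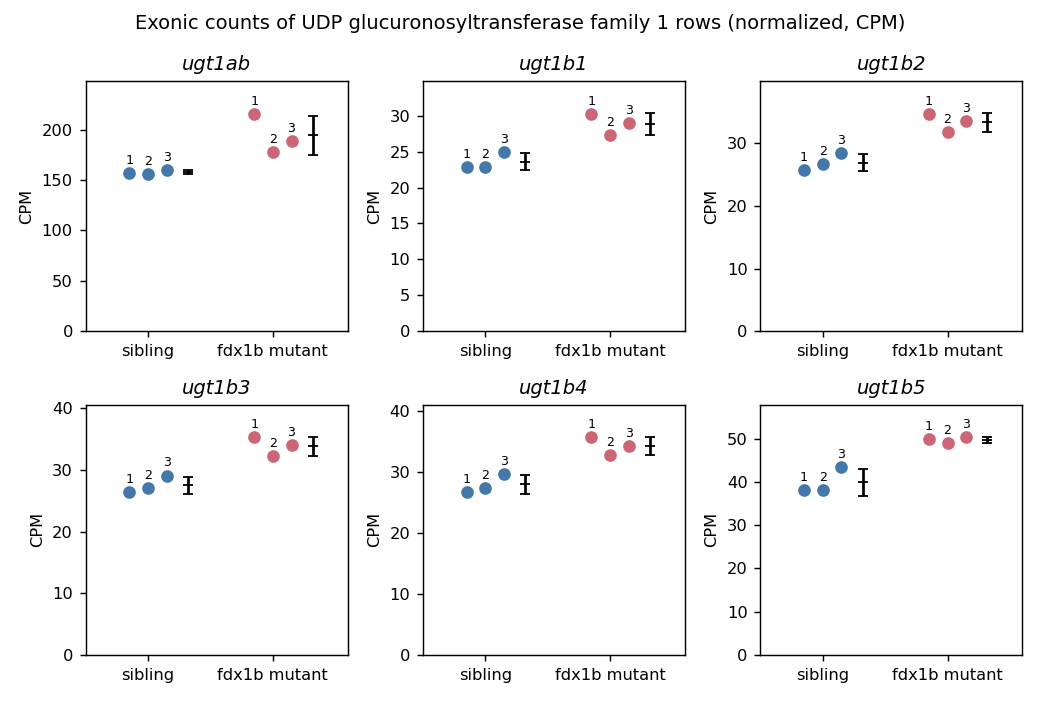
Normalized exonic counts (CPM, linear axis from 0) of the 6 family 1 members in each library. Points are single pools with their replicate number, blue for siblings and red for *fdx1b* mutants, and the black marks give the mean ± SD of 3 pools. In each panel the 3 mutant pools lie above the 3 sibling pools, and *ugt1ab* has one mutant pool well above the other 2.

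*ugt1ab* was the most abundant member. In the siblings it was at 157, 156 and 160 CPM in replicates 1, 2 and 3. In the *fdx1b*-/- pools it was at 216, 178 and 189 CPM. The siblings were tightly grouped, while mutant replicate 1 stood apart from the other 2 mutant pools, and the groups did not overlap. The means were 158 ± 2.16 CPM in siblings and 194 ± 19.5 CPM in mutants (SD, n = 3), a difference of 23.2%. On the log2 scale *ugt1ab* differed by 0.30 (SE 0.08, edgeR, adjusted *p* = 0.0529), the largest adjusted *p*-value of the 6 members. Without mutant replicate 1 the log2 fold change of *ugt1ab* was 0.22 with an adjusted *p*-value of 0.195 (edgeR).

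The row of *ugt1ab* holds 7123 bases of exon, against 1709 for *ugt1b1*. Per kilobase of exon its level was 22.2 CPM in siblings, against 13.8 CPM for *ugt1b1*. RefSeq, on the later assembly GRCz12tu, lists 7 genes in this cluster (*ugt1a1*, *ugt1a2*, *ugt1ab*, *ugt1a4*, *ugt1a5*, *ugt1a6* and *ugt1a7*), of which 6 share one end. The only identifier with a *ugt1a* name used here is that of *ugt1ab*. Which of these first exons contribute to its row was not tested, and its value is therefore a level of the row and not of one enzyme.

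*ugt1b1* was at 22.8, 22.9 and 25.0 CPM in sibling replicates 1, 2 and 3, and at 30.3, 27.3 and 29.0 CPM in the mutants. Sibling replicate 3 was the highest of its group and still below the lowest mutant pool. The mean went from 23.6 ± 1.19 to 28.9 ± 1.52 CPM (SD, n = 3), and the log2 fold change with its SE was 0.29 ± 0.07 (edgeR, adjusted *p* = 0.0341). *ugt1b1* was the only member that DESeq2 did not call, with an adjusted *p*-value of 0.0136.

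*ugt1b5* had the highest counts of the *ugt1b* rows. It was at 38.1, 38.2 and 43.5 CPM in sibling replicates 1, 2 and 3, and at 49.8, 48.9 and 50.3 CPM in the mutants. The mutant pools lay close together (SD 0.718 CPM), and sibling replicate 3 again lay above the other 2 siblings. The genotypes differed by 0.31 on the log2 scale (SE 0.06, edgeR, adjusted *p* = 0.0202), the smallest adjusted *p*-value of the 6 members.

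*ugt1b2*, *ugt1b3* and *ugt1b4* lay between these rows, with sibling means of 26.9, 27.5 and 28.0 CPM and mutant means of 33.4, 33.9 and 34.3 CPM. Their log2 fold changes were 0.31, 0.30 and 0.29, each with an SE of 0.06. Within each genotype these 3 means differed by less than the SD of any of them, which was between 1.37 and 1.57 CPM.

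The counts of the *ugt1b* rows were nested. In each of the 6 libraries the order was *ugt1b1*, *ugt1b2*, *ugt1b3*, *ugt1b4*, *ugt1b5*, from the fewest to the most counts. In sibling replicate 1, for example, the rows held 1146, 1290, 1324, 1345 and 1911 counts. The exon lengths followed the same order, at 1709, 2608, 3520, 4401 and 6232 bases. The first 3 increments were of nearly one size, 899, 912 and 881 bases, and the last was 1831 bases. In RefSeq on GRCz12tu the genes from *ugt1b1* to *ugt1b5* have the same order of span. Of the 7 *ugt1b* genes listed, which include the pseudogene *ugt1b6p*, 5 share one end. From *ugt1b1* to *ugt1b5* each longer gene encloses the shorter ones, and *ugt1b5* reaches beyond the end that *ugt1b1*, *ugt1b2*, *ugt1b3*, *ugt1b4* and *ugt1b7* share. Exon coordinates of the assembly used for counting (GRCz10) were not used here, so the nesting was read from the counts, the lengths and this gene order.

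Little of the signal of *ugt1b3* and *ugt1b4* was their own. Counts of the *ugt1b2* row made up between 97.4% and 98.6% of the *ugt1b3* row, and counts of the *ugt1b3* row between 97.8% and 99.1% of the *ugt1b4* row. The *ugt1b1* row made up between 85.7% and 88.8% of *ugt1b2*. The *ugt1b4* row made up between 67.2% and 71.7% of *ugt1b5*. The near-equal fold changes of the 5 rows are thus largely 1 set of reads listed 5 times.

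**Figure D2:**
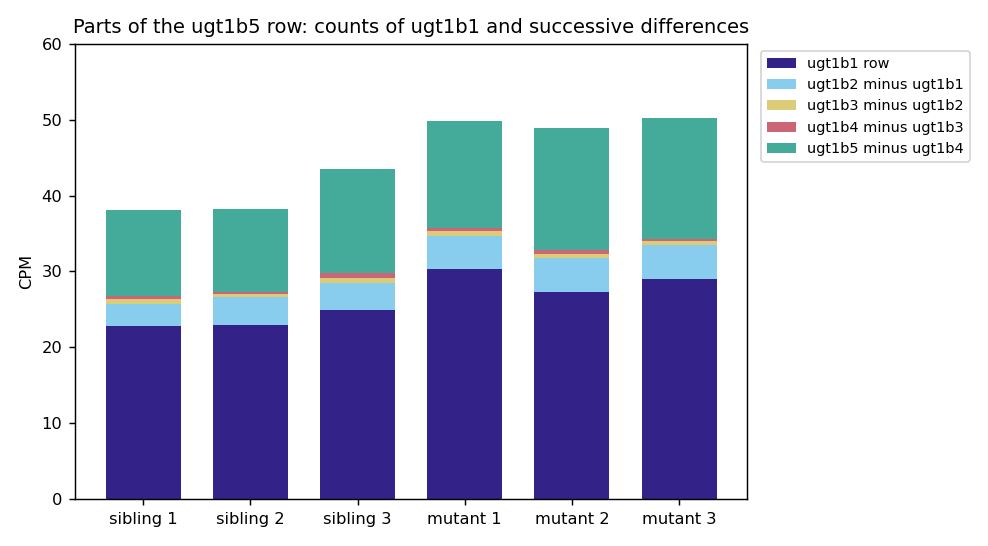
The *ugt1b5* row of each library (CPM, linear axis from 0) divided into the *ugt1b1* row and the successive differences between nested rows. The dark *ugt1b1* part makes up between 55.8% and 60.8% of each bar and the green *ugt1b5* part between 28.3% and 32.8%, while the yellow and red parts that *ugt1b3* and *ugt1b4* add are at most 1.78% and 1.50%.

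A pair of separations of the shared counts were fitted, each in place of the *ugt1b* rows and with the rest of the table kept. The first took from each row the counts of the lowest row, *ugt1b1*, and was set up with earlier results of these data known. The second took from each row the counts of the row nested inside it and was chosen after the order of the rows was seen. No difference fell below 0 in any library. The second is described here for *ugt1b1* to *ugt1b5*, where each difference leaves out the counts of the row before it.

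The counts that *ugt1b2* adds to *ugt1b1* were 144, 67 and 138 in sibling replicates 1, 2 and 3 and 163, 186 and 198 in the mutants. Scaled by library, that was 2.87, 3.69 and 3.45 CPM in siblings and 4.44, 4.54 and 4.53 CPM in mutants. The groups did not overlap, and the mutant pools were close together. The log2 fold change of these added counts was 0.46 (SE 0.12, adjusted *p* = 0.0623, edgeR), which did not pass 0.05. The adjusted *p*-value was 0.0491 with the robust edgeR fit and 0.0827 with the Wald test of DESeq2. It ran from 0.0343 to 0.236 when 1 pool was left out (edgeR).

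The counts that *ugt1b3* adds were few, 34, 7 and 28 in the siblings and 21, 19 and 21 in the mutants. For *ugt1b4* they were 21, 6 and 26 in the siblings and 15, 23 and 14 in the mutants. The genotypes overlapped for both. With edgeR the log2 fold changes were -0.30 (SE 0.28) and -0.17 (SE 0.34), at adjusted *p*-values of 0.601 and 0.829, so neither direction was resolved at this depth, and that of *ugt1b4* turned to 0.14 without sibling replicate 3 and to 0.0081 without mutant replicate 3. The positive fold changes of the *ugt1b3* and *ugt1b4* rows therefore carry no separate measurement of these first parts. In sibling replicate 2, the smallest library, 3 counts correspond to 0.165 CPM, and the added level of *ugt1b4* there was 0.331 CPM. These limits cover counting error only.

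The counts that *ugt1b5* adds to *ugt1b4* were 566, 197 and 550 in the siblings and 518, 658 and 697 in the mutants. At 11.3, 10.9 and 13.8 CPM in siblings and 14.1, 16.0 and 15.9 CPM in mutants, the groups came within 0.331 CPM of each other but did not overlap. On the log2 scale the added part differed by 0.36 (SE 0.10, edgeR, adjusted *p* = 0.0711), which did not pass 0.05. The adjusted *p*-value was 0.0300 with the Wald test of DESeq2 and 0.0451 with the robust edgeR fit. It ran from 0.0128 to 0.263 when 1 pool was left out (edgeR). No added part was called in any of the alternatives.

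Per kilobase of added exon, sibling levels were 3.71 CPM for *ugt1b2*, 0.645 CPM for *ugt1b3*, 0.530 CPM for *ugt1b4* and 6.54 CPM for *ugt1b5*. The order in the mutants was the same, at 5.01, 0.554, 0.488 and 8.39 CPM. In the siblings the values of *ugt1b3* and *ugt1b4* differed by less than the SD of either, while *ugt1b2* and *ugt1b5* were apart from both in each genotype. The part added by *ugt1b5* is longer, at 1831 bases, and its gene reaches beyond the end that the others share. Its level may therefore not be that of a first part alone, and does not rank the first parts. The *ugt1b1* row, at 13.8 CPM per kilobase in siblings, holds its own first part together with whatever all rows share, so its level is not comparable with these added parts.

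**Figure D3:**
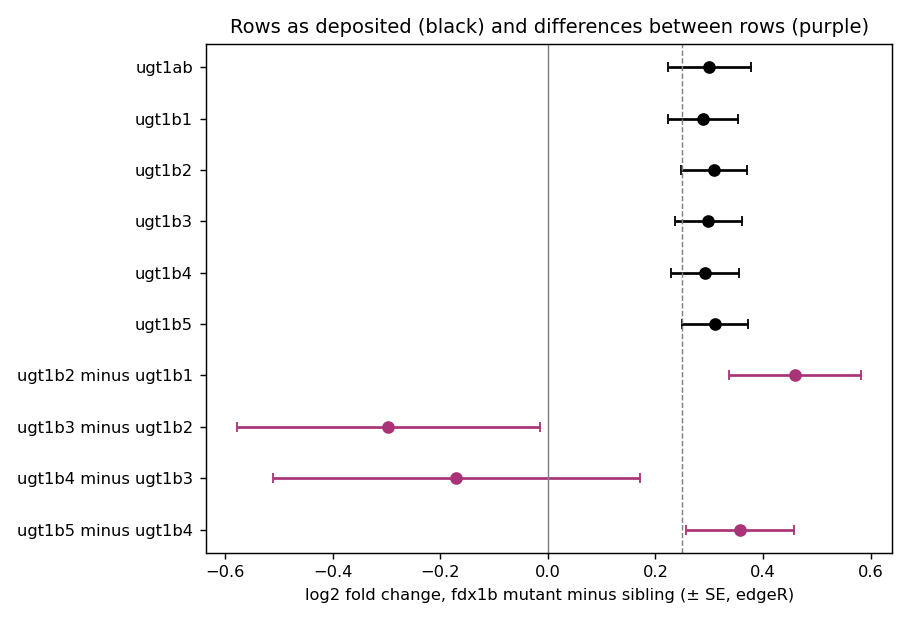
Log2 fold changes (*fdx1b* mutant minus sibling, points, with SE as bars) from edgeR for the 6 rows as deposited, in black, and for the counts that each nested row adds, in purple. The solid line marks 0 and the dashed line the limit of 0.25; the black points lie between 0.29 and 0.31, and the purple points spread from -0.30 to 0.46 with wider errors.

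*ugt1b7*, another gene of the cluster that was not among the 6 members, had means of 32.1 ± 1.57 CPM (siblings) and 39.3 ± 1.11 CPM (mutants; SD, n = 3), which is 0.29 on the log2 scale (SE 0.06, edgeR, adjusted *p* = 0.0198). Its row has 8283 bases of exon, 2051 more than *ugt1b5*, and yet held fewer counts than *ugt1b5* in each of the 6 libraries. The difference was 367, 120 and 388 counts in the siblings and 352, 443 and 467 in the mutants. The *ugt1b5* row thus contains reads that the *ugt1b7* row does not, and the 2 rows are not nested in each other.

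Ratios within a library do not depend on the scaling between libraries. For every 100 counts of *ugt1b1*, the part added by *ugt1b2* had 12.6, 16.1 and 13.8 counts in the siblings and 14.6, 16.6 and 15.6 in the mutants. The part added by *ugt1b5* had 49.4, 47.4 and 55.2 in the siblings and 46.5, 58.9 and 54.9 in the mutants. The genotypes overlapped in both ratios, and also in that of the *ugt1ab* row to *ugt1b1*, which was 688, 680 and 642 counts per 100 in the siblings and 713, 653 and 652 in the mutants. The part added by *ugt1b3* had a mean of 2.49 ± 0.700 counts per 100 in siblings and 1.75 ± 0.123 in mutants, and the part added by *ugt1b4* had 1.96 ± 0.593 and 1.50 ± 0.496 (SD, n = 3). Two-sided exact permutation *p*-values of the 6 ratios compared were between 0.3 and 1 (between 0.8 and 1 after Benjamini-Hochberg adjustment). The smallest *p* that 3 pools against 3 can give is 0.1, so this test could not have passed 0.05 for any ratio.

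Another 11 genes make UDP-glucuronate, carry it into the endoplasmic reticulum, turn it into UDP-xylose, remove glucuronic acid again or export the conjugates. Of these, 1 was called higher and 0 lower, against 0.618% of all tested genes called higher. Their median log2 fold change was 0.15, against -0.003 over all tested genes. The gene called was *ugdh*, UDP-glucose dehydrogenase, which oxidises UDP-glucose to UDP-glucuronate, the donor of every glucuronidation. It was at 51.7, 55.2 and 53.7 CPM in sibling replicates 1, 2 and 3 and at 85.7, 72.7 and 73.2 CPM in the mutants. The mutant pools were all well above the siblings, and mutant replicate 1 was the highest. The mean of *ugdh* rose from 53.5 ± 1.76 to 77.2 ± 7.34 CPM (SD, n = 3). On the log2 scale this was 0.53 (SE 0.07, edgeR, adjusted *p* = 0.00163). The call was lost without sibling replicate 1, where the log2 fold change was 0.50 and the adjusted *p*-value 0.0180 (edgeR), and held in the other 5 fits that left out 1 pool.

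The other genes of this list were not called. *slc35d1b*, a zebrafish counterpart of the human gene for a nucleotide sugar transporter of the endoplasmic reticulum, had a log2 fold change of 0.33 (SE 0.07). It passed an adjusted *p*-value of 0.05, at 0.0209 (edgeR). The other copy, SLC35D1, was at 0.12 (SE 0.09, adjusted *p* = 0.516, edgeR). For *ugp2b*, which makes UDP-glucose, the log2 fold change was 0.18 (SE 0.05), and for its paralog *ugp2a* it was 0.01 (SE 0.16). *pgm1*, which supplies glucose 1-phosphate, was at 0.22 (SE 0.06), and *uxs1*, which turns UDP-glucuronate into UDP-xylose, at 0.24 (SE 0.06). The beta-glucuronidase gene GUSB, which removes glucuronic acid from conjugates, was at -0.05 (SE 0.12). Among the export pumps, *abcc2* was at 0.15 (SE 0.07), *abcc3* at 0.02 (SE 0.07) and *abcc4* at -0.21 (SE 0.05).

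The other 22 UGT genes, of families 2, 5 and 8 and *ugt1b7*, had 18 log2 fold changes above 0 and a median of 0.23. Of all 26544 tested genes, 13081 were above 0. Among the 22, 3 were called higher and 0 lower, against 0.618% of all tested genes called higher. Counts of the *ugt1b4* row equal 86.2% to 88.8% of those of *ugt1b7*, so *ugt1b7* may not be separate from the members. The 3 called, *ugt5b2*, *ugt5b3* and *ugt5b4*, had sibling means of 83.2, 83.6 and 83.4 CPM, and their near-identical counts make them 1 measurement at most. Of the 19 sulfotransferase genes, which attach sulfate to many of the same substrates, 12 were above 0, and the median was 0.18. Here 1 was called higher and 0 lower, against the same 0.618% of all tested genes called higher. The gene called was *sult3st4*, with means of 2.07 CPM in siblings and 5.52 CPM in mutants. Its log2 fold change was 1.39 (SE 0.23, edgeR, adjusted *p* = 0.00698). Of 5 symbols listed for haem breakdown, the source of bilirubin, 4 were matched to an identifier and *hmox2a* was not. The 4 genes had a median of -0.24, and 0 were called, against 1.12% of all tested genes called in either direction. HMOX1, BLVRA and *hmox2b* were at -0.40, -0.30 and -0.18, and *blvrb* was at 0.15.

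Of 13 liver markers, 10 had a log2 fold change above 0, against 13081 of all 26544 tested genes. Their median was 0.39, with 5 called higher and 0 lower, against 0.618% of all tested genes called higher. The summed level of the liver markers ran from 3563 to 4343 CPM in the siblings and from 4828 to 4897 CPM in the mutants. By far the largest rises in CPM were those of *apoa2* and *tfa*. The mean of *apoa2* was 1450 CPM in siblings and 1973 CPM in mutants, and that of *tfa* 1010 and 1325 CPM. Neither was called (adjusted *p* = 0.0217 and 0.0204, edgeR), and the sum mostly follows these genes. The 5 called were *f2* (prothrombin), *ambp*, *vtna*, *vtnb* and *gc* (vitamin D binding protein), at log2 fold changes of 0.40, 0.56, 0.78, 0.44 and 0.41. The 3 below 0 were *fabp10a*, the liver fatty acid binding protein, at -0.12 (SE 0.07), *rbp4*, the plasma retinol binding protein, at -0.21 (SE 0.06), and *ahsg2* at -0.46 (SE 0.08), of which *ahsg2* passed an adjusted *p*-value of 0.05, at 0.0110 (edgeR). The 6 intestinal markers had a median of -0.06 with 0 called, and their summed levels overlapped, from 1003 to 1142 CPM in siblings and from 1079 to 1153 CPM in mutants. The 5 kidney tubule symbols matched 7 identifiers, as *pax2a* and *slc20a1a* were each matched to both copies of the gene. These identifiers had a median of -0.26, with 0 called higher and 2 lower, *slc13a1* and *slc13a3*, against 132 of all 26544 tested genes called lower. The summed level of the kidney identifiers was 186 CPM in the siblings and ran from 168 to 173 CPM in the mutants. The copy *slc20a1b* alone had means of 88.9 CPM in siblings and 89.0 CPM in mutants. The 6 identifiers for exocrine pancreas had a median of -0.33 with 0 called. None of these markers was at 0. Their part in the family 1 values was not tested.

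**Figure D4:**
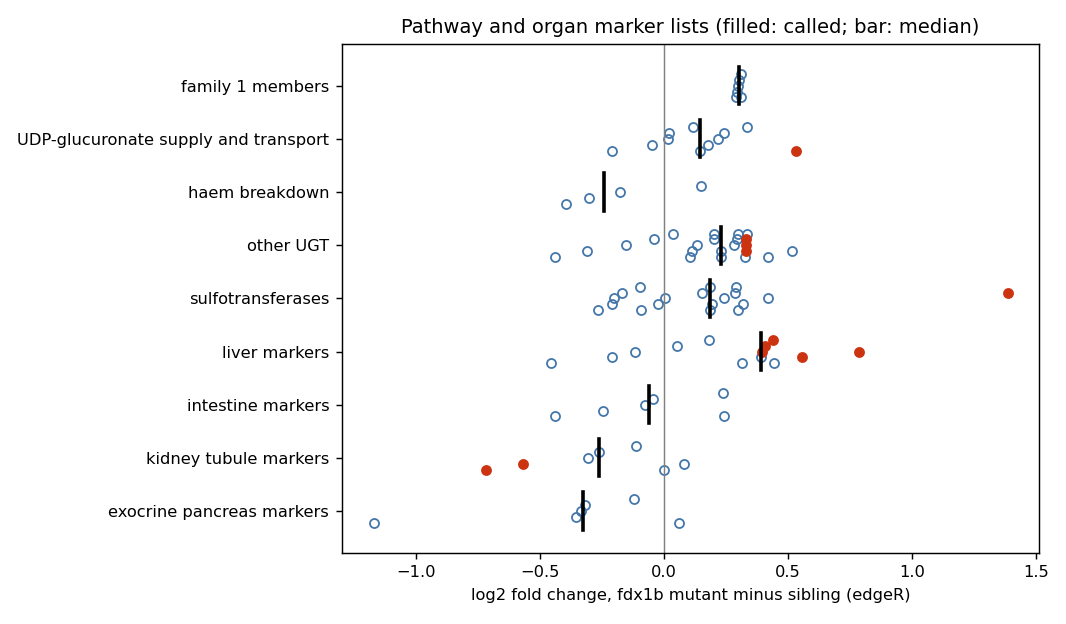
Log2 fold changes (*fdx1b* mutant minus sibling, edgeR) of the 6 family 1 members and of the genes of each pathway or organ list, 1 point per identifier, filled where called, with the median of each list as a black bar. The family 1 members lie together at 0.29 to 0.31, the called supply gene at 0.53 is *ugdh*, and the liver markers have a median of 0.39 and the kidney tubule markers one of -0.26.

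Among 21223 genes outside the UGT families with a mean of at least 1 CPM, the named genes whose log2 CPM followed *ugt1ab* most closely over the 6 libraries were *senp1* (Pearson *r* 0.993), RNF14 (0.991), *cant1b* (0.987), IDUA (0.986) and *blvrb* (0.985). The gene *blvrb* is biliverdin reductase B. For *ugt1b1* they were *zgc:92040* (0.997), *tmem123* (0.997), ACTR6 (0.995), *igsf5b* (0.994) and *tmed6* (0.994). For each of the pair, 1 identifier without a name also ranked above the last gene given. None of these 10 genes was called, and 1 passed an adjusted *p*-value of 0.05, *zgc:92040*, which differed by 0.29 on the log2 scale (SE 0.06, edgeR, adjusted *p* = 0.0313). All points of these correlations come from the same 6 libraries, and the genes were picked as the highest of many, so the values are a description only.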

How the data were processed

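Total RNA of 6 pools of larvae, 3 of each genotype, was sequenced after ribosomal RNA depletion as single-end reads with a stranded kit. The authors aligned them to GRCz10 with STAR. They deposited raw, unnormalized counts of unique alignments to the exons of Ensembl genes, made with a custom script; whether strand was used in counting is not stated. The deposited exon length of each gene, in bases, was used for levels per kilobase. Nothing in the labels says how the pools were bred, so *p*-values measure the spread between these pools.

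Genes were fitted in R 4.3.3 with edgeR 4.0.16 (TMM, filterByExpr, quasi-likelihood F test without covariates), with Benjamini-Hochberg adjustment over 26544 of 31388 genes; each SE is the fold change divided by the root of F. DESeq2 1.42.0 was an alternative. Log2 CPM used a prior count of 2. Ratios were tested in scipy 1.17.1. The methods were checked on simulated data. Of 100 genes with an absolute log2 change of 0.5, 55 were called in the right direction, and 82 of 100 with a change of 1. In that simulation 0 unchanged genes were called. Changes of the size seen in the members were not simulated. Alternatives were other scalings, filters and tests, the replicate number as a block, and each pool left out. Gene names came from a table that named 25925 identifiers and, where these were not zebrafish names, from the study's supplementary tables, whose statistics were not used. Named were the members, *ugt1b7*, the lists and the 5 genes closest in pattern to *ugt1ab* and *ugt1b1*. The genes *ugt5b2*, *ugt5b3*, *ugt5b4*, *sult3st4*, *fabp10a* and the other markers were picked from their lists after their values were seen. The members and lists were chosen with earlier results of these data known.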

Additional observations from a re-analysis of the deposited data

How the results depend on the processing

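The log2 fold changes of the 6 members stayed above 0 in all 78 values from the alternatives, between 0.22 and 0.38. The number of members called stayed at 0 with the size factors of DESeq2, upper-quartile factors, both other low-count filters and the robust fit. In those fits between 0.618% and 0.919% of all genes tested were called higher. The number was 5 with the Wald test of DESeq2, against 1.60% of all tested genes called higher. It was 5 with the threshold at 0.05 and no fold limit, against 1.94%. When 1 pool was left out it ran from 0 to 4, against 0.181% to 1.03% of all genes tested. The number at 0.05 with no fold limit, examined under the alternatives after the values were seen, ran from 0 to 6 when 1 pool was left out. The share of all genes tested that were higher at 0.05 ran from 0.665% to 3.55% there. Of the first separation of shared counts, 0 components were called, and from 0 to 1 when 1 pool was left out, the 1 being the part of *ugt1b5* above *ugt1b1* without sibling replicate 3. The sum of the *ugt1b1* row and all counts above it also took in *ugt1b7*, which is not a member. Nested counts enter this sum more than once. Its log2 fold change was 0.33 (adjusted *p* = 0.0113, edgeR). The sum was called with the Wald test of DESeq2, at 0.32, and with the robust fit, at 0.33. It ran from 0.27 to 0.38 when 1 pool was left out, with adjusted *p*-values from 0.00185 to 0.0820 (edgeR). It was called without sibling replicate 3 and not without any other pool. Without sibling replicate 2 it passed 0.05 but was not called, with an adjusted *p*-value of 0.0110 (edgeR). For the part added by *ugt1b4* the range over pools left out was -0.41 to 0.14. The parts added by *ugt1b3* and *ugt1b4* gave no value where 10 counts were required in every library. The causes were not tested. With the replicate number as a block, 0 members were called and 1, *ugt1b5*, passed 0.05. In that fit 0.358% of all tested genes were called higher and 1.21% were higher at 0.05. Deviations of same-numbered pools correlated at -0.14, -0.14 and 0.09, and 2 of 6 samples correlated best with their own number, so the numbers were not taken as pairs. Depth limits the parts added by *ugt1b3* and *ugt1b4*, with 6 to 34 counts per library.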
